A study of Danio rerio with 4 samples.

Results

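Keratins, claudins and the other structural genes of epithelial cell junctions were followed in sorted kidney cells of zebrafish (Danio rerio) embryos. Members were all probe sets whose single gene symbol in the array annotation begins with the name of a keratin, a claudin, a numbered cadherin, a desmosomal protein or plakin, a plakoglobin, a zonula occludens protein, an occludin, epcam or a connexin. This gave 95 of the 15502 probe sets on the array other than controls, for 76 of the 8793 genes that probe sets with a single symbol name. They comprised 31 claudin, 18 keratin, 14 desmosomal, 14 connexin, 10 cadherin, 5 occludin or scaffold and 2 epcam probe sets. The remaining member, krtcap2, matched by its name only and encodes a subunit of the oligosaccharyltransferase complex, not a keratin.

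All embryos were of the AB strain, carried the transgene Tg(cmyb:EGFP), in which the myb promoter drives EGFP, and were taken at 3 days post fertilization. The arrays came from embryos given either a control morpholino (n = 2) or one directed at miR-34b, a microRNA (n = 2, the morphants). A morpholino is an antisense oligomer that blocks the use or processing of an RNA. A block of tissue with the kidney in it was digested with trypsin, and 20000 GFP-positive cells per sample, labelled as multiciliated cells of the kidney, were sorted. The cells are thus defined by a reporter on the myb promoter and not by a junction protein, the number of embryos per sample is not stated, and miR-34b itself was not analysed here. The values are log2 signals, on which a difference of 1 is a doubling, and differences are morphant minus control.

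Epithelial cells are held together by several kinds of junction. Claudins and occludin form the tight junction, which seals the space between cells and is tied to actin by zonula occludens proteins. Classical cadherins form the adherens junction with catenins. Desmosomes join desmosomal cadherins, through plakoglobin, plakophilins and desmoplakin, to the keratin filaments inside the cell, and connexins form the channels of gap junctions. In the zebrafish pronephros, multiciliated cells are scattered among transporting cells of the same tubule wall, so both carry junctions, and the skin that covers the embryo is a second source of such transcripts.

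Junction transcripts of epithelial cells were present in the sorted cells. Background was set by 17 controls whose target sequences zebrafish lack, and the brightest of them read 4.93 and 3.71 on the control arrays against 4.43 and 4.11 on the morphant arrays. Of the 95 member probe sets, 68 lay above that level on all 4 arrays, 11 lay at or below it on all 4, and 25 stood among the brightest 25% of the array by mean. Markers of the labelled cell type were present too: 9 of 11 motile cilium genes on the array lay above background on all 4 arrays. The summed linear signal of the list was 7121 and 6427 in the controls against 20740.5 and 20834 in the morphants. Markers of other cells were also found. All 17 skeletal muscle genes and all 9 myeloid genes lay above background on every array, while of the podocyte markers podxl lay above it and wt1a did not. Morphant replicate 2 stood apart in some technical measures, with poly-A spike-in controls averaging 8.73 against 9.93, 9.92 and 9.53 on the other arrays, and a 3′ minus 5′ actin signal of 3.39 against 2.38 to 2.54. The 3′ minus 5′ GAPDH signal did not set it apart. That signal was 1.02 and 0.88 on the control arrays, 0.36 on morphant replicate 1 and 0.94 on morphant replicate 2.

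Of the members, 69 passed the filter on dim probe sets and were tested. In limma's test over all 11626 probe sets, 2 member probe sets rose (Benjamini-Hochberg adjusted p under 0.05) and 0 fell, which is 2.9% of those tested against a background of 2.49% higher and 0.12% lower over all probe sets. They were pkp3a, a plakophilin of the desmosome, and gjb9b, a connexin. At unadjusted p under 0.05, 9 members were higher and 6 lower, or 13.0% and 8.7%, against 11.6% and 6.1% of all probe sets. The groups did not overlap in 19 higher and 17 lower members, or 27.5% and 24.6%, against 25.1% and 24.7% of all. The median difference of the tested members was 0.032, −0.017 over all 95 members, and −0.017 over all probe sets tested. These shares lie near the background. With 2 arrays against 2 an exact two-sided permutation test of a single value cannot go below p = 0.333. In sorted cell pools, fewer cells of a type and less RNA per cell cannot be told apart.

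**Figure D1:**
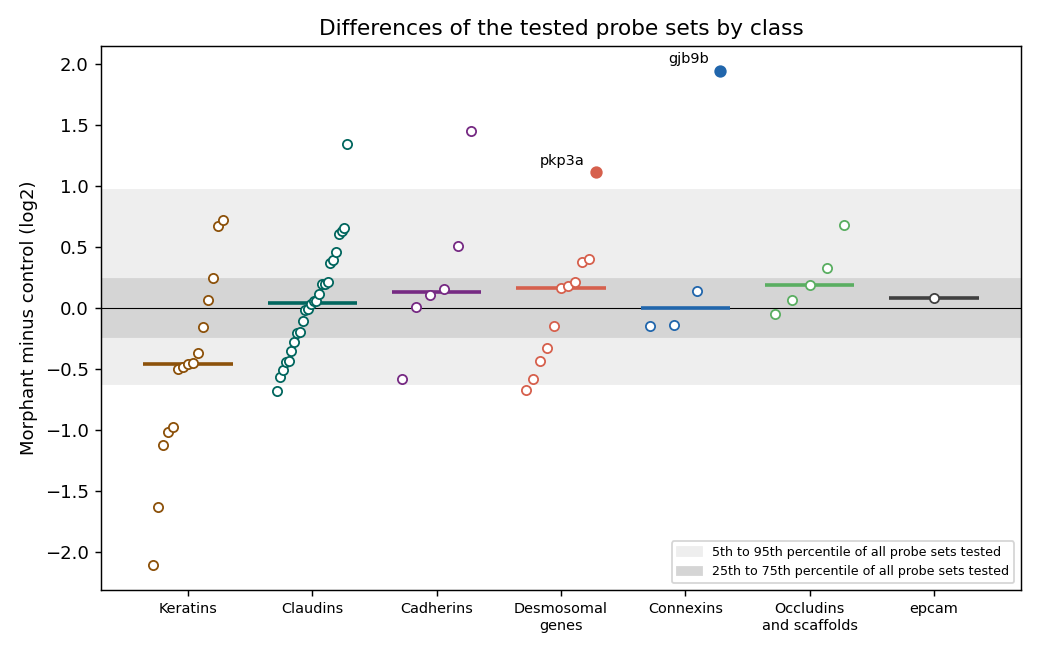
Difference between morphant and control means (log2) for each of the tested member probe sets, by class, 1 point per probe set. Filled points passed an adjusted p of 0.05 (pkp3a and gjb9b), bars are class medians, and the grey bands are percentiles of all 11626 probe sets. The keratin median, at −0.46, is the lowest of the class medians.

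Keratins, the intermediate filament proteins on which desmosomes anchor, did not move together. In limma's test 0 of 15 tested probe sets passed in either direction, with 2 higher and 2 lower at unadjusted p under 0.05; 4 differences lay above 0 and 11 below, and the median was −0.46. Their groups were separate in 3 higher and 4 lower probe sets, or 20% and 26.7%, against 25.1% and 24.7% of all probe sets, and the shares at unadjusted p were 13.3% each, against 11.6% and 6.1%.

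A pair of keratins of simple epithelia, krt18a.1 and krt8, had higher values on both morphant arrays without passing. For krt18a.1, a type I keratin of single-layered epithelia, the signal was 12.56 and 12.48 on the control arrays against 13.21 and 13.28 on the morphant arrays. For krt8, its type II filament partner, it was 12.11 and 11.95 in the controls against 12.77 and 12.63 in the morphants. Both morphant arrays exceeded both control arrays in each gene, by a gap wider than the spread within either group. The differences were 0.72 ± 0.16 (SE, n = 2 and 2, limma adjusted p = 0.102) for krt18a.1 and 0.67 ± 0.17 (adjusted p = 0.135) for krt8, and neither passed. Another bright keratin, krt97, read 12.38 and 12.47 in the controls against 12.54 and 12.80 in the morphants, a difference of 0.25 ± 0.18 (adjusted p = 0.542). The second krt18 gene, krt18b, was dimmer and differed by 0.067 ± 0.19, with overlapping groups.

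The keratins with differences below 0 formed 2 patterns. In krt17, an epidermal keratin, both morphant arrays were low: 9.54 and 9.80 against 10.83 and 10.54 in the controls, a difference of −1.02 ± 0.20 (adjusted p = 0.0744) that did not pass. The superficial skin keratin krt4 had 12.13 and 11.96 in the controls against 11.82 and 11.54 in the morphants (−0.37 ± 0.19, adjusted p = 0.393). These 2 genes were lower on each morphant array than on either control array.

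In the second pattern a single array was low. The signal of krt1-19d was 9.003 and 9.63 on the control arrays, 8.89 on morphant replicate 1 and 5.53 on morphant replicate 2, and its other probe set read 7.22, 8.12, 7.26 and 4.81 in the same order. For krt1-19e the brighter probe set read 12.93 and 12.57 in the controls against 12.74 and 11.75 in the morphants, and the dimmer one 9.64 and 9.42 against 9.02 and 7.81. The basal skin keratin krt5 read 10.59 and 10.55 against 10.57 and 9.60. In each of these morphant replicate 2 lay well under all the other arrays, and morphant replicate 1 lay inside the range of the controls or close to it, the brighter krt1-19d probe set at 0.11 below, except in the dimmer krt1-19e probe set, where it lay 0.40 below them. Morphant replicate 2 was likewise the lowest array in krt15 (8.72 and 9.07 against 9.09 and 7.77), in krt94 (8.98 and 10.31 against 9.38 and 7.96) and in both krt91 probe sets (10.71 and 10.93 against 11.15 and 10.19; 11.19 and 11.12 against 11.17 and 10.24).

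In all, 9 of the 15 keratin probe sets, from 6 genes, lay more than 0.5 under the lowest of the other arrays on morphant replicate 2. Over all probe sets tested the share was 4.15%, and in claudins it was 0 of 26. The size of the differences then depended on that array. For the brighter krt1-19d probe set the difference was −2.11 ± 1.06 (adjusted p = 0.388), −0.42 without morphant replicate 2 and −3.79 without morphant replicate 1. The dimmer krt1-19e probe set still differed by −0.52 without morphant replicate 2. The class median was −0.0042 without morphant replicate 2 and −0.92 without morphant replicate 1. On that array the poly-A controls were dimmest. The 17 skeletal muscle genes had a median of −0.69 there from the control mean, against −0.24 on morphant replicate 1 and 0.22 and −0.22 on the control arrays. This median and the list medians on single arrays that follow take the brightest probe set of each gene, where it was tested. List medians of the group difference, given further below, take all tested probe sets. On morphant replicates 1 and 2 the gut, liver and pancreas list had −0.68 and −0.81, and the notochord and cartilage list −0.34 and −0.29. The marker list of epidermis and periderm, most of which are members, had medians of −0.044 and −0.52 on the morphant arrays. The epidermal and periderm regulators and products outside the members had medians of 0.11 and 0.13 on the morphant arrays. Single genes of that list varied. Morphant replicate 2 was the lowest array in klf4, lye, tfap2a and tp63, for example, and the highest in anxa1a and esrp1. The part of RNA quality or of cell mixture in the low keratin signals was not tested.

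**Figure D2:**
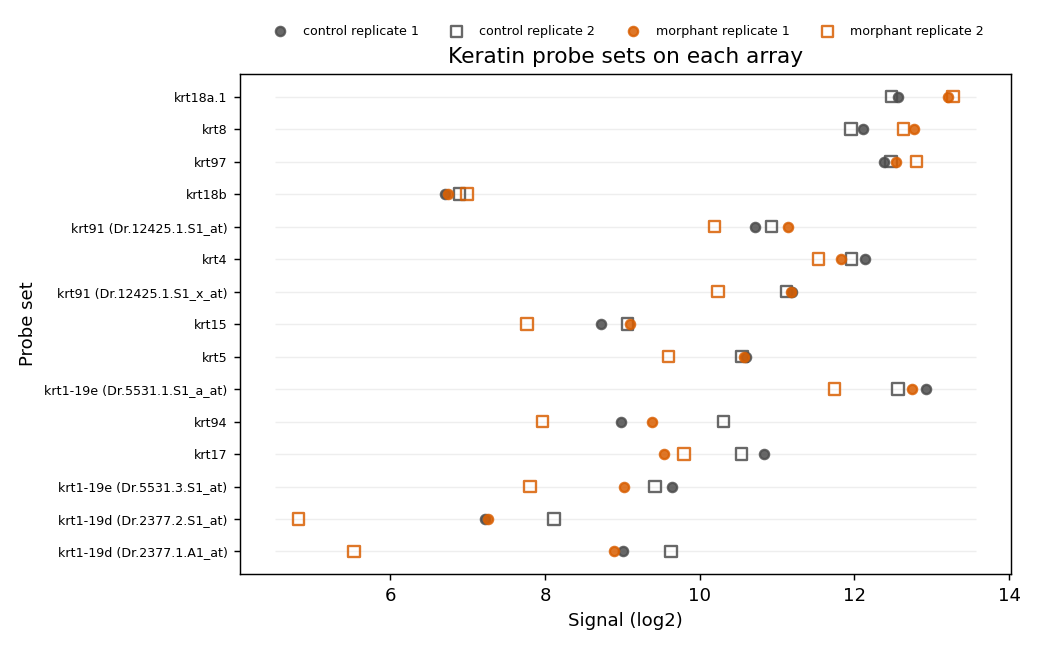
Log2 signal of the 15 tested keratin probe sets on each of the 4 arrays, ordered by the group difference, with the largest at the top. Orange open squares (morphant replicate 2) lie far to the left in krt1-19d, krt1-19e, krt94, krt15, krt5 and krt91, while krt18a.1 and krt8 have both morphant arrays to the right of both controls.

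Keratin genes that stand next to each other in the genome did not all share a pattern. By gene order in the RefSeq table, krt5, krt8 and krt18a.1 follow one another with 0 protein-coding genes between them, and krt5 was low on 1 morphant array while its neighbours were high on both. The group of krt1-19d, krt1-19e, krt17 and krt91 lies in another place, with at most 3 genes between neighbours, and in all but krt17 morphant replicate 2 was the lowest array, with both morphant arrays low in the dimmer krt1-19e probe set. A further group is krt93, krt94, krt15 and krt99, with at most 1 gene between neighbours. Its tested keratins, krt94 and krt15, shared the low morphant replicate 2. With 1 gene between them, krt4 was low on both morphant arrays and krt18b had overlapping groups. Of the 3 keratins that did not pass the filter, krt95 was at background on all arrays, and krt93 and krt99 were at background on some and varied widely, krt99 reading 4.02 and 6.79 in the controls.

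**Figure D3:**
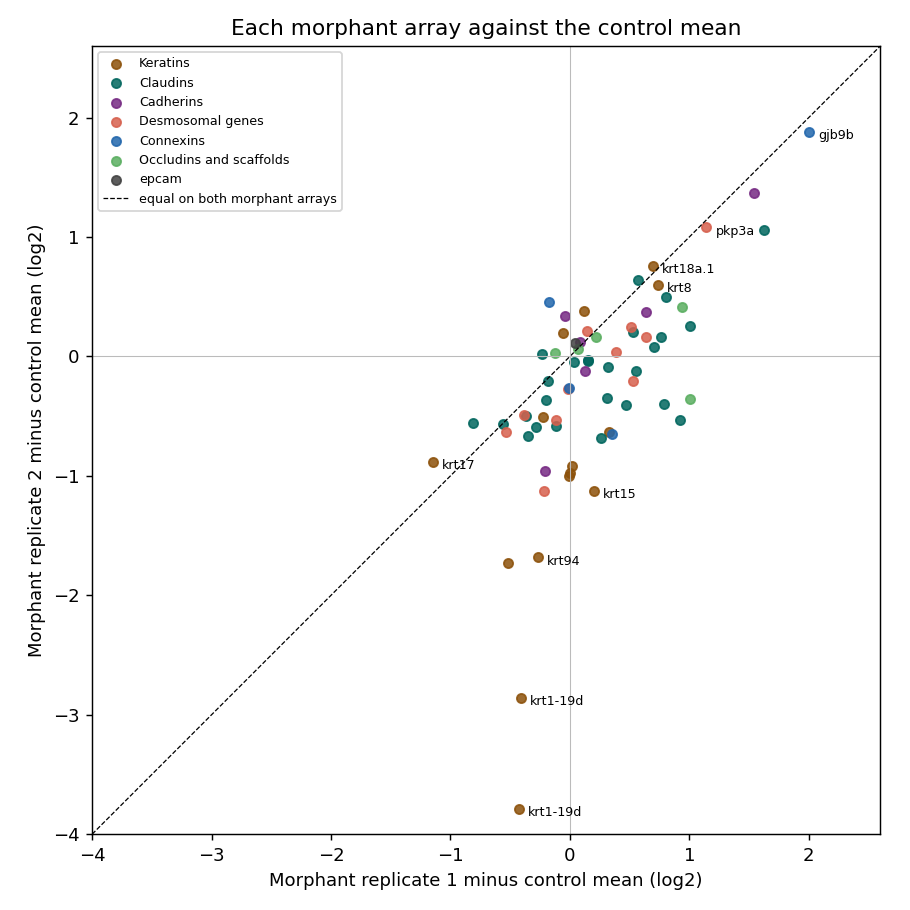
Each tested member probe set by its signal on morphant replicate 1 (x axis) and morphant replicate 2 (y axis) minus the control mean, in log2 units, coloured by class. Points on the dashed line are equal on both morphant arrays. Keratins reach down to −3.79 on the y axis, and pkp3a and gjb9b lie close to the line.

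Desmosomal genes had differences on both sides of 0. The plakophilin pkp3a, which links desmosomal cadherins to desmoplakin, rose. Its signal was 9.72 and 9.74 on the control arrays against 10.88 and 10.81 on the morphant arrays, so that the groups lay far apart and each was tight. The difference was 1.11 ± 0.16 (limma adjusted p = 0.0374), or 2.16-fold, and ranged from 1.08 to 1.14 when each array was left out. Such fits leave 1 array in a group and cannot decide whether the call holds.

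Other desmosomal members pointed both ways and none of them passed. The plakoglobin gene jupa, whose protein also serves the adherens junction, read 10.13 and 10.08 in the controls against 10.49 and 10.14 in the morphants (0.21 ± 0.19, adjusted p = 0.626). The desmocollin dsc2l, a desmosomal cadherin, read 9.62 and 9.67 against 10.16 and 9.89 (0.38 ± 0.18, adjusted p = 0.362), and its second probe set gave 0.40 with overlapping groups. The desmoglein dsg2.1 read 9.26 and 9.22 against 9.22 and 8.97 (−0.14 ± 0.18). The brighter dsc2l probe set was thus higher on both morphant arrays, and that of dsg2.1, its direct neighbour in the gene order, was not.

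Periplakin, the envoplakins and a second plakophilin had differences below 0, and none passed. The periplakin gene ppl, whose protein ties keratin to desmosomes and to the cell envelope of skin, read 9.15 and 9.01 in the controls against 8.54 and 8.45 in the morphants (−0.59 ± 0.17, adjusted p = 0.167). Its envoplakin partner evplb read 8.75 and 8.90 against 8.60 and 7.70 (−0.67 ± 0.32, adjusted p = 0.368). The plakophilin pkp1b read 7.70 and 7.85 against 7.39 and 7.29 (−0.43 ± 0.17, adjusted p = 0.269). In all 3 both morphant arrays lay under both controls, and evplb owed most of its difference to morphant replicate 2. The other envoplakin, evpla, was too dim to be tested and read 5.38 and 5.26 against 4.41 and 4.60. The plakophilin pkp4 differed by 0.18 ± 0.16, and the 2 tested desmoplakin probe sets of dspa gave 0.16 and −0.32, each with overlapping groups. Counting all 11 tested probe sets, 1 rose, 0 fell, 4 were separate and higher, 3 were separate and lower, and the median was 0.16. That median is the value of the dimmer dspa probe set. Its control mean, 5.07, lay under the cut of the filter on dim probe sets, 5.098, so it was tested only through its morphant values. Over all probe sets 2.49% rose and 0.12% fell, and 25.1% and 24.7% were separate. With the 3 dim members included the median was −0.23. Those 3 were evpla, at background on 1 morphant array, and further dsg2.1 probe sets, at background on both. Each of the latter was also at background on 1 control array.

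Among the cadherins, those of the main epithelial and neural junctions had differences near 0. The E-cadherin gene cdh1, the core of the epithelial adherens junction, read 10.17 and 10.19 on the control arrays against 10.31 and 10.06 on the morphant arrays. Its difference was 0.0057 ± 0.18 (adjusted p = 0.991), and its sign turned under median centring. The N-cadherin gene cdh2 read 8.83 and 8.82 against 8.91 and 8.95 (0.10 ± 0.16, adjusted p = 0.793), and a dimmer probe set gave 0.15. Neither gene was separated from the controls by more than 0.1.

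The largest cadherin difference was in cdh4, R-cadherin, known from the nervous system and retina. It read 6.05 and 5.24 in the controls against 7.19 and 7.01 in the morphants, with both morphant arrays above both controls. The difference was 1.45 ± 0.30 (adjusted p = 0.0856), and it did not pass. The neural marker list, which includes cdh2, had 13 of 14 tested probe sets above 0, from 8 genes. Its median was 0.40, against −0.017 over all probe sets tested. Of the 14, 7 were separate and higher and 0 separate and lower, against 25.1% and 24.7% of all probe sets. The summed signal of the list was 2789 and 3956 in the controls against 3844 and 3236 in the morphants. That sum rests most on the brightest gene, fabp7a, the only probe set of the list below 0. It read 9.40 and 11.25 against 10.17 and 9.49. The part of neural cells in the cdh4 value was not tested. The kidney tubule cadherin cdh17, which marks the zebrafish pronephros, read 8.67 and 8.96 against 9.45 and 9.18 (0.51 ± 0.20, adjusted p = 0.281). It was higher on both morphant arrays. Among the 9 tested probe sets of the pronephric tubule list, which includes cdh17, 1 rose, the chloride channel clcnk, against 2.49% of all probe sets. The median of that list, 0.51, is the value of cdh17 itself.

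The mesenchymal cadherin cdh11 read 6.12 and 6.59 against 6.15 and 5.39, and was low on morphant replicate 2 alone. Of the 6 tested cadherin probe sets 3 were separate and higher, 0 were separate and lower, and 0 passed limma's test, with 2 higher and 0 lower at unadjusted p under 0.05; the median was 0.13. Over all probe sets 25.1% and 24.7% were separate, and 11.6% and 6.1% had an unadjusted p under 0.05, higher and lower. The muscle cadherin cdh15 was at background on all 4 arrays, although muscle genes were bright in these samples. The other cadherins too dim to be tested were cdh13, cdh18a and a second cdh11 probe set, which gave 0.44 with overlapping groups.

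**Figure D4:**
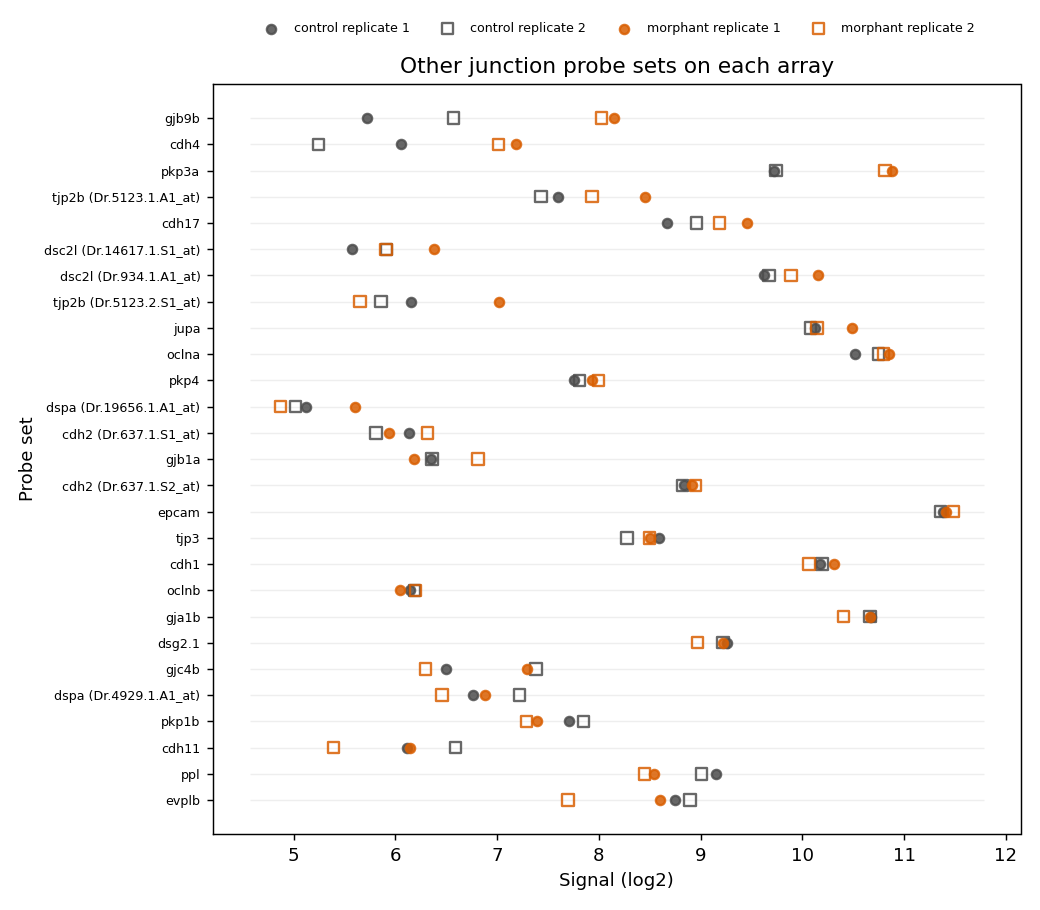
Log2 signal of the tested cadherin, desmosomal, connexin, occludin, scaffold and epcam probe sets on each of the 4 arrays, ordered by the group difference. The morphant signals of gjb9b, cdh4 and pkp3a lie to the right of both controls, those of ppl and pkp1b to the left, and those of cdh1 and gjc4b are interleaved with the controls.

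Claudins, the membrane proteins that set what passes between cells, were the largest class and gave no call. In limma's test 0 of 26 tested probe sets passed, with 2 higher and 2 lower at unadjusted p under 0.05. Those shares were 7.69% each, against 11.6% and 6.1% of all probe sets. Of the differences 14 lay above 0 and 12 below, and the median was 0.044. The groups were separate in 5 higher and 8 lower, or 19.2% and 30.8%, against 25.1% and 24.7% of all probe sets. The median moved to 0.29 without morphant replicate 2 and to −0.17 without morphant replicate 1. On morphant replicate 2, 23 of the 26 read lower than on morphant replicate 1, against 52.6% of all probe sets tested.

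The largest claudin differences were in neighbouring genes and pointed opposite ways. The signal of cldn8.1 was 4.82 and 5.36 on the control arrays against 6.72 and 6.15 on the morphant arrays, which differ by 1.34 ± 0.29 (adjusted p = 0.0937), with 1 control array at background. Its control mean, 5.087, lay under the cut of the filter on dim probe sets, 5.098, so it was tested only through its morphant values. The signal of cldn8.2 was 7.65 and 7.68 in the controls against 6.86 and 7.11 in the morphants, a difference of −0.68 ± 0.18 (adjusted p = 0.141). Their groups did not overlap in either gene, 1 protein-coding gene lies between them in the gene order, and neither difference passed. In mammals claudin 8 is a tight junction protein of the distal nephron.

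A cluster of claudin genes gave a similar spread. The genes cldn3c, cldn3d, cldnb and cldnd lie side by side with at most 1 gene between neighbours. In cldn3c the signal was 10.99 and 10.76 in the controls against 11.44 and 11.51 in the morphants (0.60 ± 0.17, adjusted p = 0.173). In cldn3d it was 10.65 and 10.50 against 10.39 and 10.36 (−0.20 ± 0.16), and in cldnb, a claudin of embryonic epithelia, 10.79 and 10.76 against 11.53 and 10.94 (0.46 ± 0.24). Within this cluster cldn3c and cldnb were separate and higher, while cldn3d was separate and lower. The dim cldnd, which was not tested, read 3.81 and 4.05 against 5.12 and 4.83. In another run of neighbours, cldnj, cldne, cldnf and cldna, the differences were 0.032, −0.0054, −0.51 and 0.39. Of these, cldnf read 6.03 and 5.40 in the controls against 5.37 and 5.05 in the morphants (±0.27, adjusted p = 0.404), and its groups nearly touched.

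Other claudins had several probe sets. The bright probe set of cldng read 13.76 and 13.51 in the controls against 13.78 and 13.60 in the morphants (0.059 ± 0.18). Its other probe sets gave 0.37, −0.28 and −0.56, the last reading 9.71 and 9.52 against 9.06 and 9.05 (adjusted p = 0.183), so the probe sets of this gene disagree. With a single probe set, the intestinal claudin cldn15la read 11.49 and 11.55 against 11.40 and 10.94 (−0.35 ± 0.21, adjusted p = 0.470). For cldn7b the brighter probe set read 8.50 and 7.79 against 8.95 and 8.65 (0.65 ± 0.29, adjusted p = 0.331) and the other gave 0.63. The 2 probe sets of cldn7b thus gave similar differences, as did those of cldn12, at 0.22 and 0.19.

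Among the other claudins, cldn10l2 and cldn23.1 were separate and lower, at −0.44 and −0.43, and cldn1, cldn11a, cldn11b, cldn15b, cldni and cldnk had overlapping groups with differences between −0.21 and 0.20. The control mean of cldn11a, 5.016, lay under the cut of the filter on dim probe sets, 5.098, so it was tested only through its morphant values. The 5 claudin probe sets that were not tested were those of cldn34a, cldnd and cldn5a, a claudin of the brain barrier in zebrafish. The 3 probe sets of cldn5a lay at or near background and gave −0.98, −2.26 and 1.25, which at that level have no order.

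**Figure D5:**
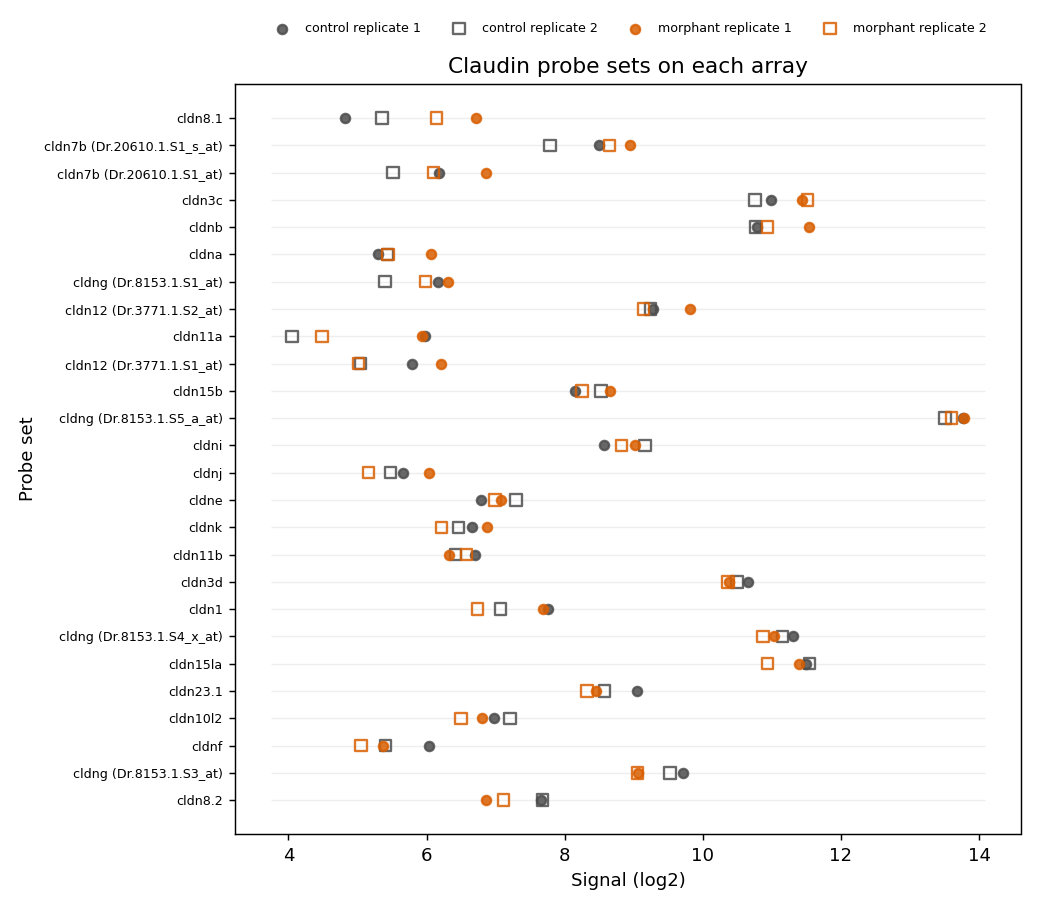
Log2 signal of the 26 tested claudin probe sets on each of the 4 arrays, ordered by the group difference, with the largest at the top. The morphant arrays of cldn8.1 and cldn3c lie to the right of both controls and those of cldn8.2 to the left, and in most of the rows between them the arrays of both groups are mixed.

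Occludins and their scaffolds gave no call. The occludin gene oclna, a tight junction membrane protein, read 10.52 and 10.75 on the control arrays against 10.85 and 10.80 on the morphant arrays (0.19 ± 0.17, adjusted p = 0.635), and its paralog oclnb differed by −0.047 ± 0.17. The gene tjp2b, for the zonula occludens scaffold ZO-2, read 7.60 and 7.43 against 8.45 and 7.93 (0.68 ± 0.23, adjusted p = 0.224), while a second tjp2b probe set had overlapping groups and gave 0.33. The scaffold tjp3 read 8.59 and 8.28 against 8.50 and 8.50 (0.066 ± 0.18), a value that turned slightly negative under quantile scaling and median centring. In limma's test 0 of the 5 probe sets passed, with 1 higher and 0 lower at unadjusted p under 0.05, and the median was 0.19. Over all probe sets 11.6% were higher and 6.1% lower at that threshold. The bright probe set of epcam, a surface adhesion protein of epithelial cells, differed little between arrays, at 11.38 and 11.36 in the controls against 11.41 and 11.48 in the morphants (0.078 ± 0.16, adjusted p = 0.853). A second epcam probe set was too dim to be tested, at 3.71 and 4.21 against 4.56 and 4.58.

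Most connexin probe sets were dim. Of 14 probe sets 10 were too dim to be tested, and 6 of the 14 lay at background on every array. The member that stood out was gjb9b, which rose. It read 5.72 and 6.57 on the control arrays against 8.15 and 8.03 on the morphant arrays, so that the groups were separated by more than the spread of the controls. The difference was 1.94 ± 0.31 (limma adjusted p = 0.0475), or 3.85-fold. It was 1.52 without control replicate 1 and 2.37 without control replicate 2. Without morphant replicate 1 it was 1.88, and without morphant replicate 2 it was 2.01. With 1 array left in a group, these fits cannot decide whether the call holds.

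The other tested connexins had differences near 0. For gja1b, a widely expressed connexin, the signal was 10.67 and 10.67 in the controls against 10.66 and 10.40 in the morphants (−0.14 ± 0.18, adjusted p = 0.751). For gjc4b it was 6.50 and 7.38 against 7.30 and 6.30 (−0.15 ± 0.44), with the arrays of both groups interleaved, and gjb1a differed by 0.14 ± 0.25. The dim connexins were gja2, gja13.1, gjb8, gjc4a.1 with its pair of probe sets, gja3 and gja8b of the lens, gja10b and gjd2b of neurons, and gja9a. The last 5 of these genes lay at background on all 4 arrays, and the gjc4a.1 probe sets gave −1.17 and −0.29. The signal of gjb8 was 4.69 and 4.12 in the controls, the first at background, and at background on both morphant arrays, and gja13.1 read 5.16 and 5.36 against 4.39 and 4.18 near the background.

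Partners of these proteins were read from 4 lists. In the list of catenins and nectins, the proteins that complete the adherens junction, limma called 0 of 9 tested probe sets, with 5 higher and 0 lower at unadjusted p under 0.05. Of the differences 8 lay above 0, 6 probe sets were separate and higher, 1 was separate and lower, and the median was 0.69. Over all probe sets 25.1% were separate and higher, 24.7% separate and lower, and 11.6% higher at unadjusted p under 0.05. The nectin gene nectin3b read 7.76 and 7.33 in the controls against 8.91 and 8.36 in the morphants (1.09 ± 0.27, adjusted p = 0.125), while its other probe set had a difference of 0.69.

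The catenins varied by gene. The p120 catenin ctnnd1, which binds classical cadherins at the membrane, read 7.14 and 7.42 in the controls against 8.59 and 7.90 in the morphants (0.97 ± 0.28, adjusted p = 0.172). The alpha catenin ctnna1, which links the complex to actin, read 8.30 and 7.91 against 8.69 and 9.08 (0.78 ± 0.23, adjusted p = 0.182). Its neural relative ctnna2 read 6.10 and 5.76 against 6.53 and 6.77 (0.72 ± 0.20, adjusted p = 0.164). In these 3 genes both morphant arrays lay above both controls, without passing. The beta catenin genes ctnnb1 and ctnnb2 differed by 0.39, 0.23 and 0.13 over 3 probe sets.

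Among partners of the tight junction and polarity genes limma called 0 of 14 tested probe sets, with 2 higher and 1 lower at unadjusted p under 0.05. Over all probe sets 11.6% were higher and 6.1% lower at that threshold. The median of the list was −0.093. The scaffold magi1a read 7.24 and 7.13 in the controls against 7.98 and 7.96 in the morphants (0.78 ± 0.16, adjusted p = 0.0857). The signal of cgnl1, a cingulin relative that sits under the junction, was 9.48 and 9.33 against 10.12 and 10.56 (0.94 ± 0.21, adjusted p = 0.106). Both were higher on each morphant array than on either control. The junctional adhesion molecule jam3b read 9.97 and 9.63 against 9.23 and 9.17 (−0.60 ± 0.19, adjusted p = 0.205), and its second probe set 8.91 and 9.28 against 8.77 and 8.60 (−0.41 ± 0.20, adjusted p = 0.373). Its probe sets were both separate and lower.

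In the list of hemidesmosome and basement membrane anchors, which fix epithelia to their matrix, 1 of 5 tested probe sets rose. The share that rose over all probe sets was 2.49%. The probe set of the list that rose was that of lama5, a laminin chain of basement membranes. It read 8.55 and 8.53 in the controls against 9.95 and 9.87 in the morphants (1.37 ± 0.16, limma adjusted p = 0.0233). The groups lay far apart, and the difference ran from 1.34 to 1.41 when each array was left out. Those fits, with 1 array left in a group, cannot decide whether the call holds. The plectin genes, whose proteins tie keratin to the hemidesmosome, had differences near 0. The probe sets of pleca read 9.58 and 9.20 against 9.04 and 9.42 (−0.16 ± 0.23) and 6.47 and 6.27 against 6.46 and 6.02 (−0.13 ± 0.22), with overlapping groups, and plecb read 6.54 and 6.29 against 6.59 and 6.76 (0.26 ± 0.18).

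In the list of epidermal and periderm regulators and products 1 of 38 tested probe sets rose and 0 fell, with a median of 0.053 and 12 separate and higher and 6 separate and lower. Over all probe sets 2.49% rose and 0.12% fell, and 25.1% and 24.7% were separate, higher and lower. The one that rose was ehf, an epithelial ETS factor, at 4.91 and 4.20 in the controls, the first at background, against 8.22 and 8.11 in the morphants (3.60 ± 0.27, adjusted p = 0.0153). The control mean of ehf, 4.56, lay under the cut of the filter on dim probe sets, 5.098. It was thus tested only through its morphant values. The difference ran from 3.25 to 3.96 when each array was left out, in fits that cannot decide whether the call holds. The annexin anxa1a read 12.70 and 12.91 against 13.65 and 13.83 (0.93 ± 0.18, adjusted p = 0.0728).

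Of the others on that list, the splicing factor esrp2, which acts in epithelia, read 6.95 and 7.27 against 8.12 and 7.61 (0.75 ± 0.24, adjusted p = 0.209). The signal of lye was 9.72 and 9.61 against 8.95 and 8.34 (−1.02 ± 0.25, adjusted p = 0.124). Both genes were separate, in opposite directions, and neither passed. Over the whole list 23 differences lay above 0 and 15 below. At limma's unadjusted p under 0.05, ehf, anxa1a, esrp2, elf3, tgm2b, s100a10b, grhl1 and a spint2 probe set were higher, and lye and tfap2a lower. Over all probe sets 11.6% were higher and 6.1% lower at that threshold. The bright skin product icn read 13.13 and 12.88 against 13.04 and 13.04, with overlapping groups. Its relative icn2, also bright, was separate and lower in both probe sets, and neither passed. They read 12.98 and 12.73 against 12.60 and 12.43 (−0.34 ± 0.18), and 11.04 and 11.08 against 10.79 and 10.88 (−0.23 ± 0.16).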

How the data were processed

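The 4 arrays, 2 per group, were grouped by their titles, which also number the replicates; the series design describes independent biological sets. Per probe set, the authors deposited a log2 signal. Per the submitters' processing notes the tool was MAS5; its version and a genome build are not given in the sources used here. With the outer 2% on both sides removed, every array averaged 500.1 on the linear scale, so the signals had been scaled array by array. RNA was amplified from 100 ng, per the labels' protocols, and the number of arrays limits the precision.

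Removing 115 controls and the lowest 25% of the other probe sets by mean left 11626. Testing used limma 3.58.1 under R 4.3.3 (lmFit and eBayes, group term only), with Benjamini-Hochberg adjustment over all 11626 and a threshold of 0.05. The fit was tested on simulated arrays. Background is the brightest of the array's tag controls. Class medians and counts are descriptions. Alternatives covered the filter, scaling, pseudocounts of 16 and 64, the variance prior, the replicate block and each array left out.

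Members, classes and lists were chosen with earlier results of these data known. The rule for genes named array by array took every member past the threshold, the 3 brightest per class, every further probe set of a gene by its difference, and up to 3 separate members per direction and class. From each partner list it took the 4 strongest statistics. Other genes given by array, among them krt4, krt5, krt15, krt94, krt91, krt99, dsg2.1, evpla, cdh11, cldn3d, cldnb, cldnd, gjb8, gja13.1, icn, icn2 and fabp7a, were chosen after their values were seen. The gene order is that of the RefSeq table for GRCz12tu, which matched all 95 members and changed 0 symbols. A further 2 probe sets with several symbols, some of them matching, were left out. The cadherin class holds all numbered cadherins, including the non-classical cdh13 and cdh17. Probe sets of paralogs close in sequence, such as krt1-19d and krt1-19e, were not checked for shared signal.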

Additional observations from a re-analysis of the deposited data

How the results depend on the processing

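Both calls depended on the settings. Instead of 2, the number of members higher was 0 without the filter on dim probe sets, 1 under quantile scaling and 1 under cyclic loess. It was 5 with a pseudocount of 64 and 6 with a trended and robust variance prior. Over all probe sets the number higher was 290 in the main fit and 0, 228, 261, 495 and 508 in the same order. Fits with an array left out leave 1 array in its group and cannot decide a call. The number lower was 1 instead of 0 with the lowest 50% left out, with either pseudocount (16 or 64) and with the trended prior. This was krt17, at limma adjusted p from 0.00733 to 0.0481. Over all probe sets the number lower was 14 in the main fit and 63, 34, 81 and 101 in that order. Without the filter pkp3a had an adjusted p of 0.146 and gjb9b 0.189. krt18a.1 passed under 3 of 13 settings and krt8 under 2. With the replicate number as a replicate block the count higher was 0 (limma adjusted p of 0.0663 for pkp3a and 0.0579 for gjb9b). Over all probe sets it was 196 with the block. The numbers are not stated to pair samples, and the deviations of same-numbered arrays correlated at 0.021, so the numbers were not taken as pairs.

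The spread between replicates was 0.46 for the keratin median and 0.24 for the claudin median, and it includes the gap between the morphant arrays. Without morphant replicate 2 the keratin median was −0.0042 and the claudin median 0.29. Without morphant replicate 1 they were −0.92 and −0.17. These shifts come from the same gap between the morphant arrays as the spread, so the spread cannot show whether they are large. Medians of other classes moved by more than their spread between replicates in these cases. The cadherin median was 0.055 under median centring and ran from 0.057 to 0.23 with an array left out. The desmosomal median was −0.23 without the filter, −0.14 with 1 probe set per gene, and ran from −0.20 to 0.15. The connexin median ran from 0.0017 to 0.22 and the occludin and scaffold median from 0.064 to 0.22. The epcam median was 0.34 without the filter and 0.0050 under median centring. Signs turned in several values. The bright cldng probe set gave −0.014 under median centring and −0.069 to 0.19 with an array left out. In the same settings cdh1 gave −0.067 and −0.12 to 0.13. For tjp3 they were −0.0068 and −0.088 to 0.22, with −0.015 under quantile scaling. Other signs that turned with an array left out included krt15, both krt91 probe sets, both cldn12 probe sets, gjb1a and the second tjp2b probe set. With an array left out gjc4b ran from −0.65 to 0.35 and pleca from −0.35 to 0.035 and from −0.35 to 0.091. The cause of these shifts was not tested. Leaving out an array leaves 1 in its group, which is then assumed to vary like the other group.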

Other observations

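The array's probe set for destabilised EGFP read 3.74 and 1.61 in controls against 1.71 and 2.72 in morphants, under the brightest absent-sequence control on each, although the cells had been sorted for an EGFP reporter.

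The name-matched krtcap2 read 11.44 and 11.52 in controls against 11.26 and 11.17 in the morphants (limma, −0.26 ± 0.16, adjusted p = 0.472). For markers of other cells, summed linear signals, controls first, were 86781 and 80259 against 81493 and 85540 for the 9 myeloid genes, and 2337 and 2416 against 1794 and 2239 for the 2 ionocyte genes on the array.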
